A study of Mus musculus with 6 samples.

Results

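The glucocorticoid receptor, the chaperones that hold it and the enzymes and receptors of steroid metabolism were examined as 10 genes of 29616 measured. These genes were listed by name from their known roles, with earlier results of these data known. They were Nr3c1 and Nr3c2, which encode the glucocorticoid and the mineralocorticoid receptor, the chaperone genes Hsp90aa1, Hsp90ab1, Ptges3 and Stip1, the co-chaperone genes Fkbp5 and Fkbp4, and the hydroxysteroid dehydrogenase genes Hsd11b1 and Hsd11b2. RNA-sequencing had been performed on bone cells of mice labelled C57BL/6 (C57BL/6J per the study's methods) in 6 libraries, 3 labelled control and 3 labelled dexamethasone, a synthetic glucocorticoid. The dexamethasone mice were dosed daily at 0.08 µg per g body weight, starting at 8 weeks of age and ending 4 weeks later, and the labels name the other mice only as control, while the study used saline-treated mice as controls elsewhere. Per the study's methods, Osteocalcin-positive cells were isolated from bones cleared of marrow, whereas the labels name only bone cells, and neither says whether a library held the cells of 1 mouse or of several, so the p-values measure the spread between these libraries, which may be technical.

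The glucocorticoid receptor waits in the cytoplasm in a complex with Hsp90 and its co-chaperones. FKBP51, encoded by Fkbp5, lowers the affinity of the receptor for hormone and slows its entry into the nucleus, whereas FKBP52, encoded by Fkbp4, couples it to transport along microtubules, and Fkbp5 is itself a well-known target that the receptor activates. In bone, Hsd11b1 regenerates active glucocorticoid within the cell and Hsd11b2 inactivates it.

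The libraries held 72596611 to 89910728 reads assigned to genes, and mitochondrial genes took 4.92% to 5.08% of the reads in the control libraries and 4.19% to 4.5% in the dexamethasone libraries. Values are normalized counts, that is, reads divided by 1 size factor per library. A gene was tested when its mean was at least 10, and it was called differentially expressed when the adjusted p from limma was under 0.05 and the log2 fold change was at least 1 in either direction. Of the osteoblast markers, 9 of 10 were lower and 1, Spp1, was higher in the dexamethasone libraries. All 10 were differentially expressed, as were 22.3% of all genes tested. Bglap, the Osteocalcin gene, was at 107 ± 12.9 normalized counts in the control and 12.2 ± 2.8 in the dexamethasone libraries (SD, n = 3 each).

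Promoter sequences are shown for Fkbp5 and Hsd11b1, the members with the highest rises. They are also shown for Fkbp4 and Nr3c2, the members with a match to paired heat shock units. Each runs 5′ to 3′ from 250 bases before to 50 bases after the gene start in RefSeq on GRCm38.p6, and capitals mark the match.
Fkbp5, GRCm38.p6 chr17:28486100-28486399, minus strand: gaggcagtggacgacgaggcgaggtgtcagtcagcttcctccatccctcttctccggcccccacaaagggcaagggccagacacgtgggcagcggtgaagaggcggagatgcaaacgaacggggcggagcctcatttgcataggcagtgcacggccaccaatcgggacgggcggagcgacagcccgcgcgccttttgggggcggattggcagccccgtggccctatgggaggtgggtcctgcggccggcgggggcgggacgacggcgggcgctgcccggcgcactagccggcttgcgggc
Fkbp4, GRCm38.p6 chr6:128438607-128438906, minus strand: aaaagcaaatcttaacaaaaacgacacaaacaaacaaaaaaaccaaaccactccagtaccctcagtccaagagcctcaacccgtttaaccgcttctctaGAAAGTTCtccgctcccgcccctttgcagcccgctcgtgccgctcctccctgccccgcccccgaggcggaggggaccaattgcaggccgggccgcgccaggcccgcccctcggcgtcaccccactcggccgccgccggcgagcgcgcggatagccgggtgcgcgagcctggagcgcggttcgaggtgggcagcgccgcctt
Nr3c2, GRCm38.p6 chr8:76902080-76902379, plus strand: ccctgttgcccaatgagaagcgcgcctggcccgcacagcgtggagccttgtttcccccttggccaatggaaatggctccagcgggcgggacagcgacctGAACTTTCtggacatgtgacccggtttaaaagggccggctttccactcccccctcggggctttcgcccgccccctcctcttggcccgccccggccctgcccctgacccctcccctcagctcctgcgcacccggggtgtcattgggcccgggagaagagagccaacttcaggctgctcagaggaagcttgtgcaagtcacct
Hsd11b1, GRCm38.p6 chr1:193242311-193242610, minus strand: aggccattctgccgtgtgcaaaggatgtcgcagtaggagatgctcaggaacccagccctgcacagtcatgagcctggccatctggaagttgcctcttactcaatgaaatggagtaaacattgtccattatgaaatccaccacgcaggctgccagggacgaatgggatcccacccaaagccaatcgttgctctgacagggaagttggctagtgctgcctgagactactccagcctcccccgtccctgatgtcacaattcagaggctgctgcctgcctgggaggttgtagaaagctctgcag

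Of the 10 genes, 6 had a promoter in that table. The motif of paired heat shock units, GAANNTTC, reads the same on either strand. It stood in the promoters of Fkbp4, as GAAAGTTC, and of Nr3c2, as GAACTTTC, in each with its first base 151 bases before the start. It occurred in 7.86% of all 32851 promoters of 300 bases. The reverse arrangement TTCNNGAA (8.52% of all promoters) and TGTTCT on either strand (19% of all promoters), the core of a glucocorticoid response element, were found in 0 of the 6. TTCNNGAA can overlap GAANNTTC within a longer run. Longer runs of heat shock units and the full glucocorticoid response element were not searched. The promoters of Fkbp5, Fkbp4, Nr3c2 and Hsd11b1 had a GC content of 70.7%, 65.3%, 65.7% and 54.7%, beside a median of 52.7% over all promoters. They held 32, 33, 17 and 6 CpG dinucleotides respectively, beside a median of 7. These matches describe the printed windows and do not show binding.

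Fkbp5 rose 21.3-fold with dexamethasone, Hsd11b1 rose 8.55-fold from a level near the detection limit, and the 5 other genes of the Hsp90 complex rose between 1.26-fold and 1.86-fold. Both corticosteroid receptor genes fell, Nr3c1 by 1.90-fold and Nr3c2 by 2.19-fold. Of the 10 genes, 9 passed an adjusted p of 0.05 (limma), 7 higher and 2 lower, while Hsd11b2 did not. Among all 17442 genes tested, 72.5% passed, 37.2% higher and 35.2% lower. The fold threshold was also passed by 3 of the 10, Fkbp5 and Hsd11b1 higher and Nr3c2 lower, whereas 22.3% of all genes tested were differentially expressed, 11.7% higher and 10.6% lower. The groups did not overlap for any of the 10 genes, as for 74.7% of all genes tested. All 10 genes passed the filter on low values, Hsd11b1 through its dexamethasone libraries alone, so its place in these counts is no support for them. When at least 10 in every library was required, Hsd11b1 was not tested and 2 genes were differentially expressed. The median log2 fold change of the 10 was 0.63, and that of all genes tested was 0.000712.

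**Figure D1:**
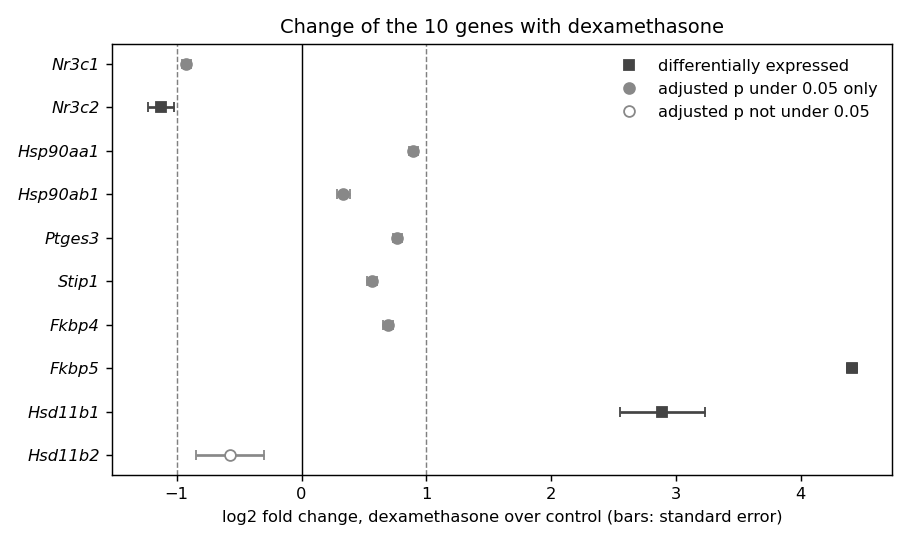
Log2 fold change of each of the 10 genes, dexamethasone over control, from limma on log2(normalized counts + 1) with 3 libraries per group. Bars are standard errors and dashed lines mark the fold threshold. Fkbp5 at 4.41 and Hsd11b1 at 2.89 stood to the right of the upper line, Nr3c2 at -1.13 stood to the left of the lower one and Nr3c1 at -0.92 fell just inside it.

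The receptor was examined first. Nr3c1, through which dexamethasone acts, was at 19449, 20679 and 20284 normalized counts in the control libraries and at 10746, 10720 and 10355 in the dexamethasone libraries. All 3 dexamethasone libraries lay well below the lowest control, and they differed from each other by less than the controls did. The means were 20137 ± 628 and 10607 ± 219 (SD, n = 3 each), a log2 fold change of -0.92 (SE 0.0355, limma adjusted p = 1.46e-17). This passed the adjusted p but not the fold threshold, whereas with the libraries rescaled to the same total it reached -1.04 and with quantile normalization -1.12, both past that threshold. Since these are bulk libraries, fewer cells that express a gene and less RNA per cell cannot be told apart here or for the genes that follow.

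Nr3c2 encodes the mineralocorticoid receptor, which binds natural glucocorticoids with high affinity. It was at 287, 307 and 324 normalized counts in the control libraries and at 132, 148 and 140 in the dexamethasone libraries. Every dexamethasone library was below every control. The means fell from 306 ± 18.5 to 140 ± 8.31, a log2 fold change of -1.13 (SE 0.105, limma adjusted p = 7.46e-10). The gene Gm10649 on the opposite strand covers 3.82% of the Nr3c2 exon bases, and whether the counting used strand is not given in the sources used here. In a library, Nr3c1 exceeded Nr3c2 by 6.04 ± 0.0632 on the log2 scale in the controls and by 6.24 ± 0.0915 with dexamethasone. The groups did not overlap in this ratio, with a difference of 0.20, and the exact two-sided permutation p was 0.1, the smallest that 3 against 3 allows.

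Both estrogen receptor genes were also lower. Esr1, which encodes estrogen receptor alpha, fell from 763 ± 28.5 to 465 ± 19.4 normalized counts, and Esr2, for estrogen receptor beta, from 248 ± 18.4 to 97.8 ± 8.98. These log2 fold changes of -0.71 and -1.33 passed the limma adjusted p, and Esr2 was differentially expressed. Pgr, the progesterone receptor gene, had 3 reads or fewer in every library and was not tested. Esr1 and Esr2 remained lower at their adjusted p with the libraries rescaled to the same total and with quantile normalization.

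**Figure D2:**
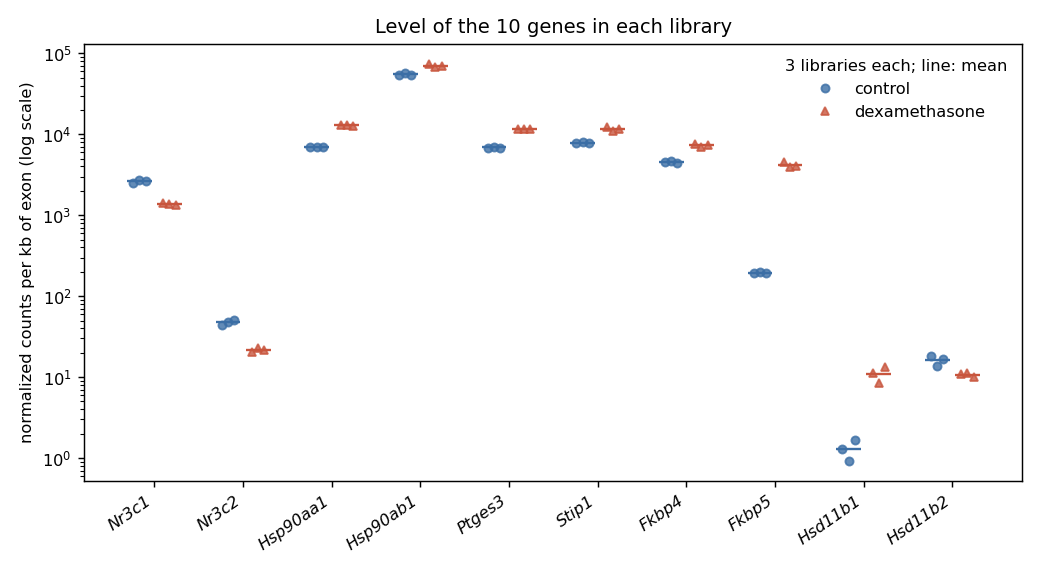
Normalized counts per kilobase of exon of each of the 10 genes in each of the 6 libraries, on a log axis, with a point per library and lines at the group means. The 3 control and the 3 dexamethasone libraries stand apart for each gene, by the widest margin for Fkbp5, whose mean was 196 in the controls and 4171 with dexamethasone.

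Among the FK506-binding co-chaperones, Fkbp5 carried the greatest change of the 10 genes. It was at 1829, 1897 and 1837 normalized counts in the control libraries and at 42453, 37715 and 38299 in the dexamethasone libraries. The groups were far apart, with a coefficient of variation of 2.01% in the controls and 6.54% with dexamethasone. The means were 1855 ± 37.3 and 39489 ± 2584, a log2 fold change of 4.41 (SE 0.0408, limma adjusted p = 1.3e-29), rank 111 from the highest of the 17442 genes tested. Its partner Fkbp4, which competes with Fkbp5 for the same docking site on Hsp90, was at 12533, 12948 and 12325 in the controls and at 21344, 19444 and 20367 with dexamethasone. All dexamethasone libraries were above all controls. The log2 fold change of Fkbp4 was 0.69 (SE 0.0378, limma adjusted p = 2.05e-14), below the fold threshold.

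Because a ratio of highly counted genes within a library depends little on its size factor, the balance of the related genes was also compared directly. The ratios were taken on normalized counts + 1, which alters those of low genes such as Hsd11b1 and Hsd11b2. Fkbp5 over Fkbp4 was at -2.78, -2.77 and -2.75 on the log2 scale in the control libraries and at 0.99, 0.96 and 0.91 in the dexamethasone libraries. Thus there were fewer normalized counts of Fkbp5 than of Fkbp4 in each control and more in each dexamethasone library. The ratio moved by 3.72 with an exact two-sided permutation p of 0.1, again the smallest possible, and 0.1 after adjustment over the 4 ratios tested. Per kilobase of exon, the sum of both genes rose from 4705 ± 117 to 11464 ± 601 normalized counts per kilobase, and the share of Fkbp5 in it from 4.16% ± 0.0456 to 36.4% ± 0.65. With the length of the longest transcript in place of all exons, the share was 9.27% in the controls and 57.3% with dexamethasone, so which of the genes led in the dexamethasone libraries depended on the length used.

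**Figure D3:**
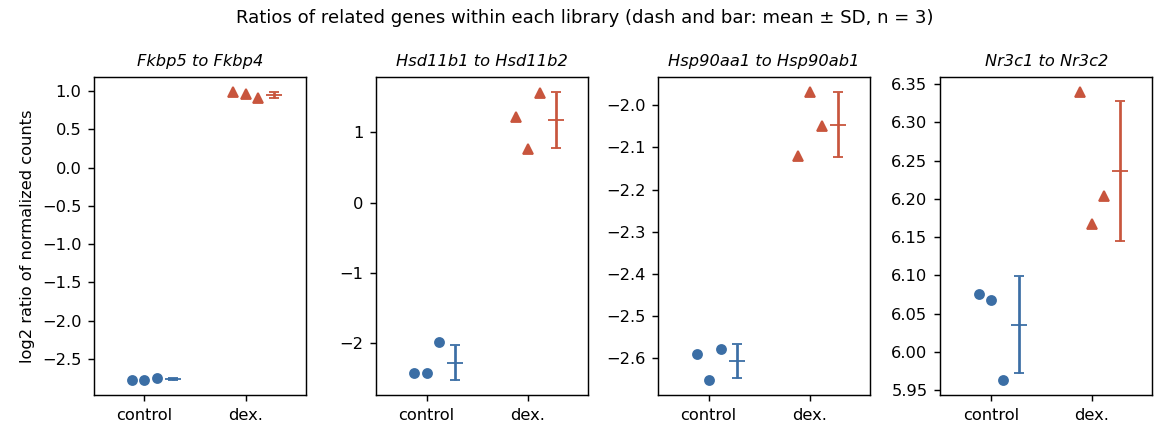
Log2 ratio of related genes within each library, with a point per library, a dash and bar for the group mean ± SD and a separate vertical scale in each panel. Fkbp5 over Fkbp4 crossed zero, from -2.76 to 0.95, and Hsd11b1 over Hsd11b2 from -2.28 to 1.18. Hsp90aa1 over Hsp90ab1 and Nr3c1 over Nr3c2 moved by 0.56 and 0.20.

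Of the other FK506-binding proteins, most were lower, with 4 of 12 tested higher and 8 lower, beside 37.2% and 35.2% of all genes tested. The list's median log2 fold change was -0.28, and this median was negative under every alternative tried. Fkbp9 and Fkbp10, folding enzymes of the endoplasmic reticulum, fell by 0.71 and 0.54 on the log2 scale, and Fkbp8, a mitochondrial membrane protein gene, by 0.16. Fkbp1a, the binding protein of FK506 and rapamycin, rose by 0.69. Only Fkbp11 of this list was differentially expressed, at 778 ± 44.6 normalized counts in the controls and 2321 ± 137 with dexamethasone, and it is named because of that call.

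Next were the Hsp90 genes and their partners. Hsp90aa1, the inducible cytosolic Hsp90, was at 27164, 27452 and 27420 normalized counts in the control libraries and at 51139, 51365 and 50212 in the dexamethasone libraries. The gap between the groups was far wider than the spread within either. The log2 fold change was 0.90 (SE 0.0353, limma adjusted p = 2.44e-17). Of the 75-base positions of its transcripts, 57.2% were found in no other gene, and the rest were shared with the pseudogenes Gm12346, Gm5844 and Gm5511, so its count is uncertain. Gm12346 itself was at 91.0 to 100 normalized counts in the controls and at 162 to 179 with dexamethasone.

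Hsp90ab1, the constitutive cytosolic Hsp90, had the highest level of the 10 genes and the smallest rise. It was at 163706, 172758 and 163878 normalized counts in the control libraries and at 222366, 200861 and 207847 in the dexamethasone libraries. The groups did not overlap, although replicates within the dexamethasone group spread more widely than for Hsp90aa1. The log2 fold change was 0.33 (SE 0.0506, limma adjusted p = 2.3e-06). Per kilobase of exon, the sum of both Hsp90 genes went from 62568 to 83092 normalized counts per kilobase and the share of Hsp90aa1 from 11.1% to 15.6%. The log2 ratio of Hsp90aa1 to Hsp90ab1 moved from -2.61 ± 0.04 to -2.05 ± 0.0766 (exact two-sided permutation p = 0.1).

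Ptges3 encodes p23, which stabilises the mature complex of Hsp90 and receptor. It was at 15026, 15465 and 15200 normalized counts in the controls and at 25986, 25817 and 25972 with dexamethasone, without overlap. The log2 fold change was 0.77 (SE 0.0338, limma adjusted p = 2.38e-16). Of its 75-base positions, 81.5% were unique, and Ptges3-ps, the pseudogene that shared most of the others, moved from 1078 to 1145 normalized counts in the controls to 1758 to 1889 with dexamethasone, so a part of either count could belong to the other. Stip1 encodes Hop, the adaptor that passes the receptor from Hsp70 to Hsp90. It was at 16320, 17150 and 16371 in the controls and at 25945, 23455 and 24360 with dexamethasone. All 3 dexamethasone libraries were above the controls, with a log2 fold change of 0.56 (SE 0.0389, limma adjusted p = 2.23e-12).

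The other chaperones and co-chaperones of the receptor cycle were followed as a list. Of 30 listed, 29 were tested, of which 20 were higher, 3 lower and 6 did not pass. Of all genes tested, 37.2% were higher and 35.2% lower. In limma, edgeR or DESeq2, 0 of the list were differentially expressed, beside 22.3% of all genes tested in limma. Hspa8, the constitutive Hsp70, rose by 0.39 on the log2 scale and Hspa4, a nucleotide exchange factor, by 0.49. Dnaja1, an Hsp40 co-chaperone, rose by 0.28. St13, the Hsp70-interacting protein gene Hip, rose by 0.15, but was at -0.05 with quantile normalization. At the ends of the list, and named for their values, Dnajb1, an Hsp40 gene, rose by 0.76 and Hspa2, an Hsp70 gene, fell by 0.64. The list's median log2 fold change was 0.18, beside 0.07 with the libraries rescaled to the same total, where 15 were higher and 9 lower, and 0.00 with quantile normalization, where 11 were higher and 10 lower. The rescaling to the same total also shifted the median of all genes tested, to -0.11.

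The genes of organelle chaperones and small heat shock proteins were listed together with Hspa14, a further Hsp70 gene. This list divided, with 5 of 11 higher, 2 lower and 4 not passing, and a median log2 fold change of 0.03. The shares of all genes tested were 37.2% higher and 35.2% lower. Hspd1, the mitochondrial Hsp60 gene, rose by 0.70 and Hspa5, which encodes BiP of the endoplasmic reticulum, fell by 0.16. Hspa9 and Hsp90b1, of the mitochondria and the endoplasmic reticulum, were at 0.03 and 0.02 with adjusted p of 0.451 and 0.62 (limma). Cryab and Hspa14, named for their call, were differentially expressed at 1.11 and 1.06, and neither was with the libraries rescaled to the same total or with quantile normalization, where the median was -0.08 and -0.05.

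In the same libraries, all 8 proliferation genes of a separate list were differentially expressed and higher, as were 11.7% of all genes tested. The median log2 fold change of these 8 was 2.65. Their summed level was 33368 to 35680 normalized counts in the controls and 206621 to 220196 with dexamethasone, Mki67 alone rising from 11639 ± 536 to 77747 ± 4230. The part of this difference in the rise of the chaperone genes was not tested.

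**Figure D4:**
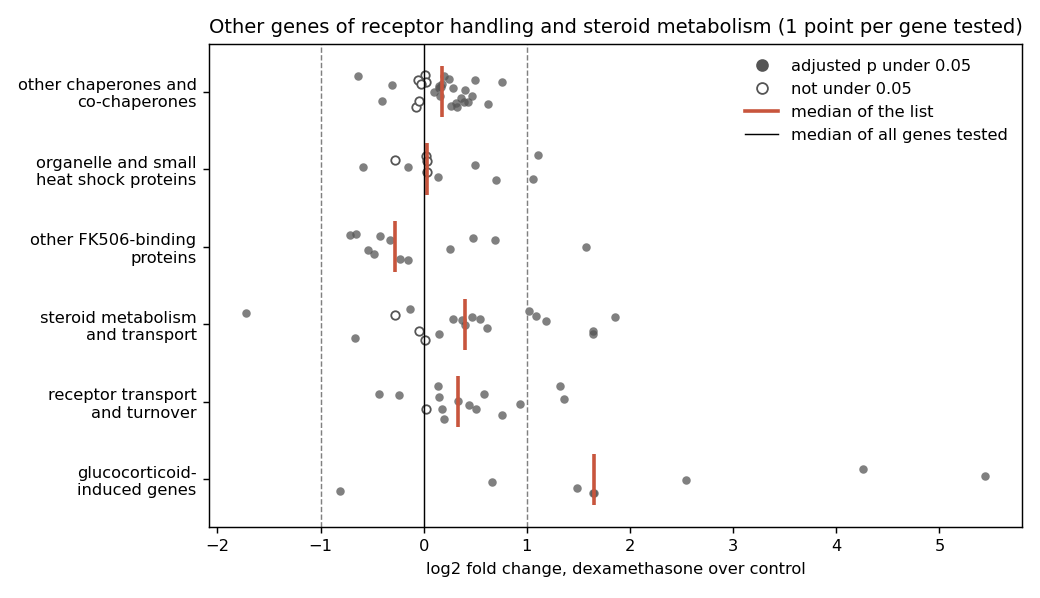
Log2 fold change, dexamethasone over control, of every tested gene in 6 pathway lists, with a point per gene, open where the adjusted p was not under 0.05, and a red bar at each list's median. Dashed lines mark the fold threshold and the solid line the median of all genes tested. The other FK506-binding proteins had a median of -0.28, the other chaperones of 0.18 and the glucocorticoid-induced genes of 1.65.

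The hydroxysteroid dehydrogenase genes Hsd11b1 and Hsd11b2 were low in every library. Hsd11b1 was counted at 6, 4 and 8 reads in controls 1 to 3 and at 50, 33 and 49 reads with dexamethasone, or 5.5, 3.9 and 7 against 47.7, 36 and 57 normalized counts. Every dexamethasone library was above every control, and its coefficient of variation, 28.4% in the controls and 22.5% with dexamethasone, was the highest of the 10 genes in either group. The means were 5.48 ± 1.56 and 46.9 ± 10.5, with a log2 fold change of 2.89 on the log2(normalized counts + 1) scale (SE 0.341). That scale understates the change of low genes, and the control mean rests on fewer than 10 reads per library. Hsd11b1 passed the filter on a mean of 10 through its dexamethasone libraries alone, so its adjusted p under that filter is no support for the rise. It was not tested when at least 10 in every library was required. With no filter on low values, its log2 fold change was again 2.89 and its limma adjusted p was under 0.05.

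Hsd11b2 was counted at 37, 26 and 35 reads in controls 1 to 3 and at 21, 19 and 16 reads with dexamethasone. As normalized counts it was at 34, 25.4 and 30.8 against 20, 20.7 and 18.6, the groups close but without overlap. The log2 fold change of -0.57 (SE 0.274) had a limma adjusted p of 0.0654 and did not pass. Over the 16 alternatives that gave a value the adjusted p ranged from 0.00646 to 0.191 and was under 0.05 in 3. The log2 ratio of Hsd11b1 to Hsd11b2 was taken on normalized counts + 1. It was -2.43, -2.43 and -1.98 in the controls and 1.21, 0.77 and 1.56 with dexamethasone. Hsd11b2 thus had more normalized counts in each control and Hsd11b1 in each dexamethasone library, with a shift of 3.46 (exact two-sided permutation p = 0.1).

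Of 40 further genes of steroid metabolism and transport, 29 were in the table and 19 were tested, with 13 higher, 3 lower and 3 not passing. Over all genes tested, 37.2% were higher and 35.2% lower. The median log2 fold change of the 19 was 0.40. It was 0.28 and 0.26 with the libraries rescaled to the same total and with quantile normalization. H6pd, which supplies the cofactor of Hsd11b1 in the endoplasmic reticulum, rose from 3255 ± 82.5 to 10187 ± 642 normalized counts, a log2 fold change of 1.64. Abcb1b, an efflux pump that exports dexamethasone, rose from 3218 ± 58.8 to 10050 ± 96.9, also by 1.64. Hsd17b12, of fatty acid elongation and estrogen formation, rose by 1.09, but by 0.98 and 0.88 with the libraries rescaled to the same total and with quantile normalization, below the fold threshold. Hsd17b7, of cholesterol synthesis, was 0.15 higher with overlapping groups, and at -0.06 with quantile normalization.

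The remaining differentially expressed genes of this list are named because they were called. Abcb1a, the second efflux pump gene, rose by 1.86, Srd5a1, a steroid reductase gene, by 1.19 and Por, the electron donor of microsomal cytochrome P450 enzymes, by 1.02, just past the threshold. Por was under the fold threshold in 5 alternatives, between 0.83 and 1.00. Cbr1, a carbonyl reductase gene, fell by 1.72, from 256 ± 13.8 to 79.4 ± 22.9 normalized counts. The 5 genes Srd5a2, Akr1d1, Cyp11a1, Cyp21a1 and Hsd3b2 had 3 reads or fewer in every library. Cyp17a1, another enzyme of steroid synthesis, had 7 to 18 reads in the controls and 4 to 8 with dexamethasone and was not tested.

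Of 15 genes for proteins of receptor transport into the nucleus or turnover, 12 were higher, 2 lower and 1 did not pass. Among all genes tested, 37.2% were higher and 35.2% lower. The median log2 fold change of the 15 was 0.33. With the libraries rescaled to the same total, 9 were higher and 3 lower with a median of 0.22, and with quantile normalization 8 were higher and 2 lower with a median of 0.14. Kpnb1 and Ipo7, importin genes, rose by 0.93 and 0.75. Mdm2, a ubiquitin ligase gene, rose by 0.17. Dync1h1, the dynein heavy chain of transport along microtubules, was at 0.03 with an adjusted p of 0.601 (limma) and overlapping groups. The 2 differentially expressed genes, named for their call, were the nucleoporin genes Nup62, from 2391 ± 136 to 6152 ± 375 normalized counts, and Nup205, from 9517 ± 53.3 to 23763 ± 432.

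Beside the receptor complex, 8 genes known to be induced by glucocorticoids in many tissues were followed. Of these, 7 were higher and 1 lower, and 6 were differentially expressed and higher, as were 11.7% of all genes tested. The list was chosen with earlier results of these data known, so this comparison is not a test of it. Zbtb16, with 0 reads in each control, passed the filter through its dexamethasone libraries alone, so its place in these counts is no support for them. When at least 10 in every library was required, 7 were tested, 6 higher and 1 lower, with 5 differentially expressed. Sgk1, a kinase gene, rose from 3596 ± 215 to 68542 ± 590 normalized counts, and Tsc22d3, which encodes the leucine zipper protein GILZ, from 5531 ± 167 to 17389 ± 226. Per1, a clock gene, rose by 1.49 on the log2 scale. Ddit4, a regulator of mTOR signalling, was the 1 lower gene, at 7816 ± 279 in the controls and 4446 ± 66.5 with dexamethasone.

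Levels of the 10 genes were compared with each other per kilobase of exon. In the control libraries the order ran from Hsp90ab1 at 55612 normalized counts per kilobase through Stip1 at 7881, Hsp90aa1 at 6956, Ptges3 at 6870, Fkbp4 at 4509 and Nr3c1 at 2621 to Fkbp5 at 196, Nr3c2 at 47.3, Hsd11b2 at 16.3 and Hsd11b1 at 1.29. Only the neighbours Hsp90aa1 and Ptges3 overlapped between libraries. In the dexamethasone libraries Hsp90ab1 was at 70143, followed by Hsp90aa1 at 12950, Ptges3 at 11694, Stip1 at 11664, Fkbp4 at 7293, Fkbp5 at 4171, Nr3c1 at 1380, Nr3c2 at 21.6, Hsd11b1 at 11 and Hsd11b2 at 10.8. Here Ptges3 overlapped Stip1 and Hsd11b1 overlapped Hsd11b2. Fkbp5 thus stood below Nr3c1 in the controls and above it with dexamethasone. With the length of the longest transcript, Fkbp5 at 10236 stood above Fkbp4 at 7612 in the dexamethasone libraries.

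Relative to Nr3c1 in the same library, the Hsp90 complex genes rose further than their own fold changes show. The ratio to Nr3c1 rose 40.3-fold for Fkbp5, 3.53-fold for Hsp90aa1, 3.23-fold for Ptges3, 3.07-fold for Fkbp4, 2.81-fold for Stip1 and 2.39-fold for Hsp90ab1. These values have no test of their own, since each follows from the fold changes of both genes.

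The genes whose pattern over the 6 libraries lay nearest to that of Nr3c1 were Cop1, a ubiquitin ligase gene, Adh7, an alcohol dehydrogenase gene, and Sgcb, which encodes beta-sarcoglycan. Their Euclidean distances were 0.0416, 0.056 and 0.0656 between centred log2 values, among the 12021 genes that averaged 100 or more, and their log2 fold changes were -0.93, -0.93 and -0.89. Nearest to Fkbp5 were Dusp6, a phosphatase gene of ERK signalling, Fyb, an adaptor protein gene, and Fosl1, an AP-1 subunit gene, at 0.144, 0.213 and 0.214. They rose by 4.35, 4.39 and 4.56. With 2 groups in 6 libraries, the distance is set mainly by the difference between the groups.

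Markers of cells other than osteoblasts also differed between the groups. For comparison, 37.2% of all genes tested were higher and 35.2% lower. Of the endothelial markers, 2 of 4 tested were higher, Esam and Pecam1. Tek at -0.75 and Egfl7 at 0.12 on the log2 scale did not pass (limma adjusted p = 0.146 and 0.802). Without dexamethasone replicate 2, Tek was differentially expressed and lower, at -1.21. The summed endothelial level was 44.1 to 68.5 normalized counts in the controls and 81.1 to 93.7 with dexamethasone. Cdh5 and Tie1 had 3 reads or fewer in every library. Pecam1 (limma adjusted p = 0.0419) did not pass with the libraries rescaled to the same total, in limma without the trend, in edgeR, in DESeq2, with no filter on low values, or without control replicate 1 or dexamethasone replicate 1 or 2. Of the blood cell markers 3 of 5 tested were higher and 2 lower, with a summed level of 6694 to 6955 against 8098 to 8586, and of the macrophage and osteoclast markers 1 of 4 was higher and 3 lower, with 13107 to 13708 against 8712 to 9282. Arhgdib made up most of the first sum and Ctsk of the second. Named for their values, Cd53 rose from 15.7 ± 3.99 to 283 ± 24.8 normalized counts, Itgb2 from 54.6 ± 10.2 to 503 ± 26.2 and Cd68 from 173 ± 14.1 to 596 ± 71.3. Acp5 had 0 reads in each control and 7, 26 and 17 with dexamethasone. In the other direction, Laptm5, Coro1a and Mmp9 were differentially expressed at -1.49, -1.77 and -1.16 on the log2 scale. Each of them had 25 reads or fewer per library. Coro1a did not pass in limma without the trend (adjusted p = 0.0634). Mmp9 fell short of the fold threshold without dexamethasone replicate 2 (-0.88) and with 4 added to the normalized counts before the log (-0.95). Csf1r and Ctsk were lower at -0.67 and -0.65, while Ptprc had 2 to 5 reads per library and was not tested. Of the neutrophil and red cell markers 1 of 2 was higher, summing to 673 to 693 against 777 to 943, and of the skeletal muscle markers 1 of 3 was lower, summing to 63.3 to 79.3 against 55.6 to 73.5.

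The adipocyte marker Fabp4 was at 2.16 ± 0.527 normalized counts in the controls and 1448 ± 63.4 with dexamethasone. It was the 1 gene tested of 5 and passed the filter on low values through its dexamethasone libraries alone. Adipoq had 9, 3 and 1 reads in the controls and 2, 1 and 1 with dexamethasone. Plin1 had 0, 2 and 6 against 2, 0 and 1, and Cidec and Lep had 3 reads or fewer in every library. Of the osteocyte markers 2 of 3 were higher, beside 37.2% of all genes tested, and Dmp1 rose from 38.5 ± 2.66 to 5639 ± 326. The summed osteocyte level was 229 to 254 against 5613 to 6276, and Dmp1 made up most of it with dexamethasone. Phex was at 0.60 on the log2 scale. Mepe was at 18.5 ± 7.89 normalized counts in the controls and 10 ± 2.39 with dexamethasone (limma adjusted p = 0.0749). Of the 5 osteocyte markers listed, 2 were not among the genes measured. The part of any of these cell types in the changes of the 10 genes was not tested.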

How the data were processed

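Total RNA of 6 libraries was prepared with a KAPA Stranded kit and sequenced. The authors aligned and counted the reads with STAR 2.7.10a and normalized them with DESeq2 1.36.0, on GRCm39 per the submitters' processing notes. The annotation release and strand setting are not given in the sources used here. The deposited values are a signal, read counts divided by 1 size factor per library. Whole reads were recovered for 100% of values (tolerance 0.01).

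Genes with a mean of at least 10 (17442 of 29616) were tested with limma 3.58.1 in R 4.3.3, with a mean-variance trend, on log2(normalized counts + 1) with Benjamini-Hochberg adjustment. Differential expression was called by the study's cut-offs, a log2 fold change of 1 or more either way at an adjusted p under 0.05. The fit was run on simulated data in which 200 of 17442 genes were changed, and limma called these 200 with 1 false call. In the libraries themselves 12645 of 17442 genes passed the adjusted p, and how the fit behaves with that many changed genes was not tested. Among the alternatives were count tests on those reads, with DESeq2 1.42.0 and edgeR 4.0.16.

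Symbols and lengths came from GENCODE M21 (28087 of 29616 identifiers matched), on another build, so no gene coordinates are given. The 10 genes and all lists were chosen with earlier results of these data known. Of each other list, up to 4 tested genes with the highest mean were named, and for Nr3c1 and Fkbp5 the 3 nearest genes by distance. A listed gene is not reported here. Levels by the longest transcript, ratios to Nr3c1 and the alternatives for listed genes outside the 10 were added after seeing the data. Depth was 72596611 to 89910728 reads, and replicates differed by more than the sampling noise.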

Additional observations from a re-analysis of the deposited data

How the results depend on the processing

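Among the 10 genes, the count of differentially expressed genes, 2 to 4, and the count under the adjusted p, 8 to 10, were within 1.5 times the reported ones in all 17 alternatives. The 10 genes kept their direction and their call of differential expression in 165 of 167 cases, although Hsd11b2 passed the adjusted p in 3 of 16. The 2 exceptions were Nr3c1 with the libraries rescaled to the same total (-1.04) and with quantile normalization (-1.12). In both, 0 genes of the list of organelle chaperones, small heat shock proteins and Hspa14 were differentially expressed, against 2. The values of Cryab and Hspa14 were 0.99 and 0.95 in the first and 0.92 and 0.89 in the second. St13, Hsd17b7 and Arhgdib, a blood cell marker, changed sign with quantile normalization, at -0.046, -0.060 and -0.057. The other 236 counts of the pathway lists were within 1.5 times the reported ones. The cause was not tested.

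Among all genes tested, 52.3% of the 3894 differentially expressed genes were higher, against 45.1% of 3938 with the libraries rescaled to the same total, where the median log2 fold change of all genes was -0.11, and 62.2% of 2170 when a mean of at least 100 was required. Hsd11b1 gave no value at a mean of at least 100 or at 10 in every library, and Hsd11b2 none at the former. Depth limits both genes, at 4 to 50 reads per library.

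The control and dexamethasone libraries share replicate numbers, but same-numbered libraries did not deviate together (correlations -0.0999, -0.105 and -0.0199). With the replicate number as a replicate block, 3897 genes were differentially expressed, 3 of the 10 genes among them (9 by the adjusted p alone), and Nr3c1 stayed at -0.92 and Fkbp5 at 4.41. No call among the 10 genes changed.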
